A study of Mus musculus with 4 samples.

Results

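The Hox genes were read in ureters of mouse embryos in which the ΔN isoform of p63, a regulator of basal cells in stratified epithelia, was deleted in the Pax2 lineage. They were taken as every probe, control spots aside, whose gene name in the scanner files is Hox, a cluster letter from a to d and a paralog number. This gave 39 genes read by 45 of the 39429 probes on the array, and where a gene had several probes, the brightest one stood for it. Of these genes, 33 were bright enough to be tested, among 17899 tested genes of 23946 with a name.

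Each of 4 arrays compared total RNA from the ureters of a mutant and a control embryo sample of the NMRI strain at E18.5. The conditional mutant (cKO) was Pax2-cre/+; Trp63(dN-flox/dN-flox), and the control was Trp63(dN-flox/?), with no cre given in its label, so the controls also carried at least 1 floxed allele but may have had either second allele. Pax2-cre is active in the nephric duct and its derivatives, the ureter epithelium among them, and in other Pax2-expressing tissue, so the deletion was not limited to basal cells. Array 2 carried a male pair and arrays 1, 3 and 4 female pairs; the cKO was in the red channel on arrays 1 and 3 and in the green channel on arrays 2 and 4, and all 4 shared 1 slide and scan. The labels do not tie the RNAs to separate embryos, so the p-values measure only the spread between these samples, which may be technical.

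Hox genes encode homeodomain transcription factors that give cells along the body axis their positional identity. They lie in 4 clusters, and within a cluster the genes with low paralog numbers are used toward the head and those with high numbers toward the tail. In the urogenital tract, Hoxa11, Hoxc11 and Hoxd11 act in the mesenchyme that induces the kidney, Hoxa13 and Hoxd13 in the bladder and the lower tract, and Hoxb7 is expressed in the nephric duct and its branches. The genes are transcribed in both mesenchyme and epithelium of a ureter, and in whole ureters fewer cells of a type and less RNA per cell cannot be told apart.

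Of the 6 Hox genes past the threshold described below, 4 lie in cluster D, and the RefSeq table of promoters (build GRCm38.p6) held each of them. Their promoters are printed because these neighbours on chromosome 2 went in opposite directions: Hoxd13, Hoxd12 and Hoxd1 were higher in the cKO and Hoxd3 was lower. Each line is the 250 bases before the transcription start of that table, on the + strand. Whether the transcript that a probe reads begins at the start used here was not examined. Capitals mark TATAAA on either strand, which in Hoxd13 matched on both strands in overlapping letters.
Hoxd13, chr2:74667975-74668224: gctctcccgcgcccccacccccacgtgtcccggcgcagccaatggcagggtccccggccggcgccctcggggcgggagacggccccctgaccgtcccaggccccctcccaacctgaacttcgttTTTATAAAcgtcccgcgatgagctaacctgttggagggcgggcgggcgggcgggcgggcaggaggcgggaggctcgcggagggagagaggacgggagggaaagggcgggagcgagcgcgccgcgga
Hoxd12, chr2:74674763-74675012: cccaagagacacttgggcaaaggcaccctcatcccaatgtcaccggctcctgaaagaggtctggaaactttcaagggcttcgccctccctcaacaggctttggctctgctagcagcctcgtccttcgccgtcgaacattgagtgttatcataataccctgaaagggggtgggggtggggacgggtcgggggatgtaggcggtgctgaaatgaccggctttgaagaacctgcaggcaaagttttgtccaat
Hoxd3, chr2:74711743-74711992: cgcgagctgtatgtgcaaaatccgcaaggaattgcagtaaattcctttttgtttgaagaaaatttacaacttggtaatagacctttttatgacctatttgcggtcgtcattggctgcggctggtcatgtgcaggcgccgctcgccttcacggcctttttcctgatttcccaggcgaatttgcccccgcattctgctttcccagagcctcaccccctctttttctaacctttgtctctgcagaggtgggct
Hoxd1, chr2:74762730-74762979: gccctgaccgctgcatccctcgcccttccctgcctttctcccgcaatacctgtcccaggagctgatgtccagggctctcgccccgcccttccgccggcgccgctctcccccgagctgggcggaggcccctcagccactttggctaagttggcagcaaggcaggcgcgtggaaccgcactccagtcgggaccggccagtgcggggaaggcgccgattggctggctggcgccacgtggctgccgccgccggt

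The Hoxd13 and Hoxd1 promoters were rich in G and C, at 74.4% with 31 CpG pairs and 71.6% with 24. The Hoxd12 promoter held 55.6% G and C with 10 CpG pairs, and the Hoxd3 promoter 49.2% with 12. The medians were 52.4% and 6 CpG pairs over 32851 promoters of the same table, and 59.2% and 13 over the 24 promoters found for 22 of the 39 Hox genes. TATAAA was present, on either strand, in 4 of those 24 Hox promoters and in 12.4% of all promoters. The p53-family half-site was in 3 of the 24 and 7.13% of all, and TGATTNAT, the site of Pbx-Hox pairs, was in 2 of the 24 and 2.82% of all. Both motifs were searched on both strands, and neither was in the 4 promoters printed. A match is a description of the letters only.

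The array reads each gene through probes of its own, and family members share sequence in the homeobox. The longest run shared by probes of any 2 different Hox genes was 11 bases. The probes were not compared with the transcripts of other Hox genes, so this does not show that each reads its own gene alone.

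Trp63 itself gave log2 ratios of cKO over control of -2.86, -1.68, -2.03 and -2.13 on arrays 1 to 4 (-2.18 ± 0.50, SD, n = 4; adjusted p = 0.00205). Where its probe lies relative to the floxed segment was not examined, so this value is given as measured. Median mean signals lay between 460 and 531 in the green channel and between 551 and 607 in the red, over local backgrounds of 31 to 32.5 and 75 to 82. Array 1 had more probes well above background (90% green, 82.6% red) than the others (75% to 76.5% and 72.4% to 72.9%). Markers of the labelled tissue were measurable: all 8 smooth muscle, all 8 ureter mesenchyme and all 6 superficial urothelial genes of the lists used here were well above background on 4 arrays in at least 1 genotype. So were 17899 of the 23946 genes with a name, and all 8 hepatocyte, 6 adrenal and 5 skeletal muscle genes listed. This count therefore does not identify the tissue. The fitted ratios come from limma with a dye term, adjusted by Benjamini-Hochberg over all genes tested, with a threshold of 0.05; "past the threshold" below means this, and errors are SDs over 4 arrays.

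Most Hox genes were measurable in the late ureter. Signal was well above background in both genotypes on all 4 arrays for 32 of the 39 genes: all 11 of cluster A, 8 of 10 in cluster B, 4 of 9 in cluster C and all 9 of cluster D. Hoxc11, an inducer of the kidney with its paralogs, passed on 4 arrays in the control and 3 in the cKO. The other 6 were not tested. Hoxb13, a gene of the hindgut and prostate, and Hoxc12 were not well above background on any array. Hoxb1 and Hoxc13, a gene of hair follicles, passed in the control on 1 array each and in the cKO on 0. Hoxc8 passed only in the cKO, on 1 array, and Hoxc5 on 1 array in the control and 2 in the cKO. Their log2 ratios are given as measured, since both channels were near background: the means ran from -0.22 for Hoxc13 to 0.06 for Hoxb13.

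**Figure D1:**
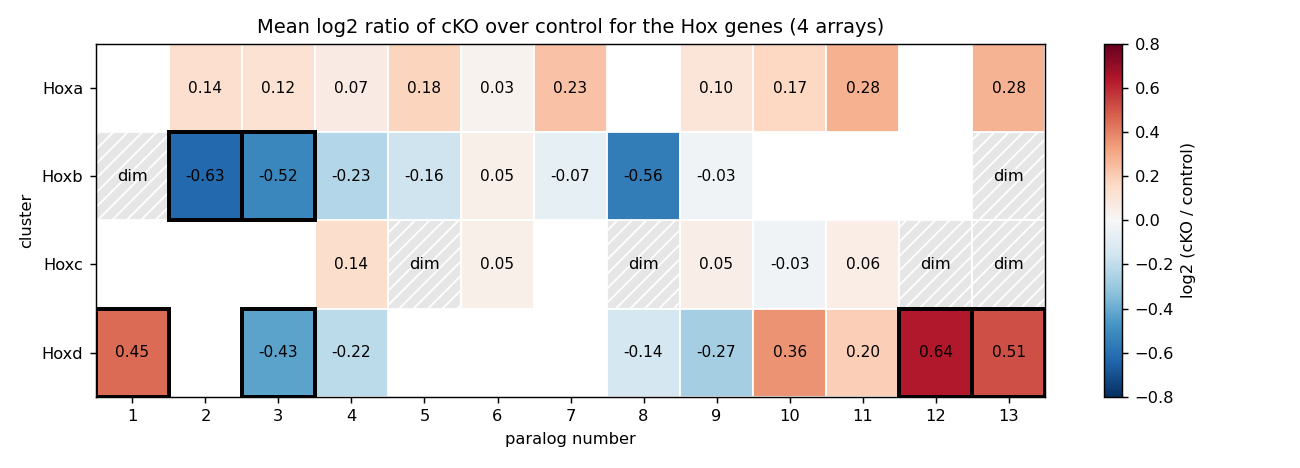
Mean log2 ratio of cKO over control for the Hox genes, arranged by cluster (rows) and paralog number (columns), as a colour scale; black frames mark the 6 genes past the threshold, and hatched cells marked dim the 6 genes not tested. Cluster A is positive throughout, cluster B negative in 7 of 8, and cluster D is split between positive values at paralog numbers 10 to 13 and negative ones at 3 to 9.

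Hox genes changed in both directions in the cKO. Of the 33 tested, 3 were higher (Hoxd1, Hoxd12 and Hoxd13) and 3 lower (Hoxb2, Hoxb3 and Hoxd3), by 1.34-fold to 1.56-fold. That is 18.2% of the tested Hox genes, where 8.54% of all tested genes passed; by direction it is 9.09% each way, against 2.94% higher and 5.6% lower. The median ratio over the 33 genes was 0.06 (SD of the 4 array medians 0.13), with 21 positive and 12 negative values between -0.63 and 0.64. Individual ratios were larger in size than those of all genes, with a median absolute log2 ratio of 0.17 against 0.08, and their SD over arrays was larger too, with a median of 0.24 against 0.13.

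The count was not carried by every array. With 1 array left out, 1 of the 6 Hox genes stayed past the threshold without array 1 (Hoxd1), 4 without array 2 (Hoxb3, Hoxd3, Hoxd12 and Hoxd13, while Hoxb8 newly passed), 2 without array 3 (Hoxb2 and Hoxd12) and 2 without array 4 (Hoxd1 and Hoxd12). Of all tested genes, 4.69%, 6.13%, 5.45% and 4.66% passed without arrays 1, 2, 3 and 4. None of the 6 calls was kept under each of the 4 omissions, which leave 1 residual degree of freedom. All 4 ratios had the same sign for 16 of the 33 genes (48.5%), against 30.6% of all tested genes. The 4 cKO levels did not overlap the 4 control levels for 6 of them (18.2%), against 9.83% of all. At an unadjusted p under 0.05 stood 14 of 33 (42.4%), against 23.6%. In the deposited value table only Hoxd1 and Hoxd12 of the 6 passed, where 4.76% of all tested genes passed. The adjusted p of the other 4 was 0.0578 (Hoxd3), 0.0678 (Hoxb3), 0.0706 (Hoxb2) and 0.125 (Hoxd13). A further fit used the separate channels with the array as a random block, which pairs the 2 samples of an array. There 11 Hox genes passed, all 6 among them, with Hoxa10, Hoxa11, Hoxb8, Hoxd9 and Hoxd10. That fit also called more of all tested genes, 16.2%. Without that pairing block 1 Hox gene passed, Hoxd3 (adjusted p = 0.032), where 3.11% of all tested genes passed.

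**Figure D2:**
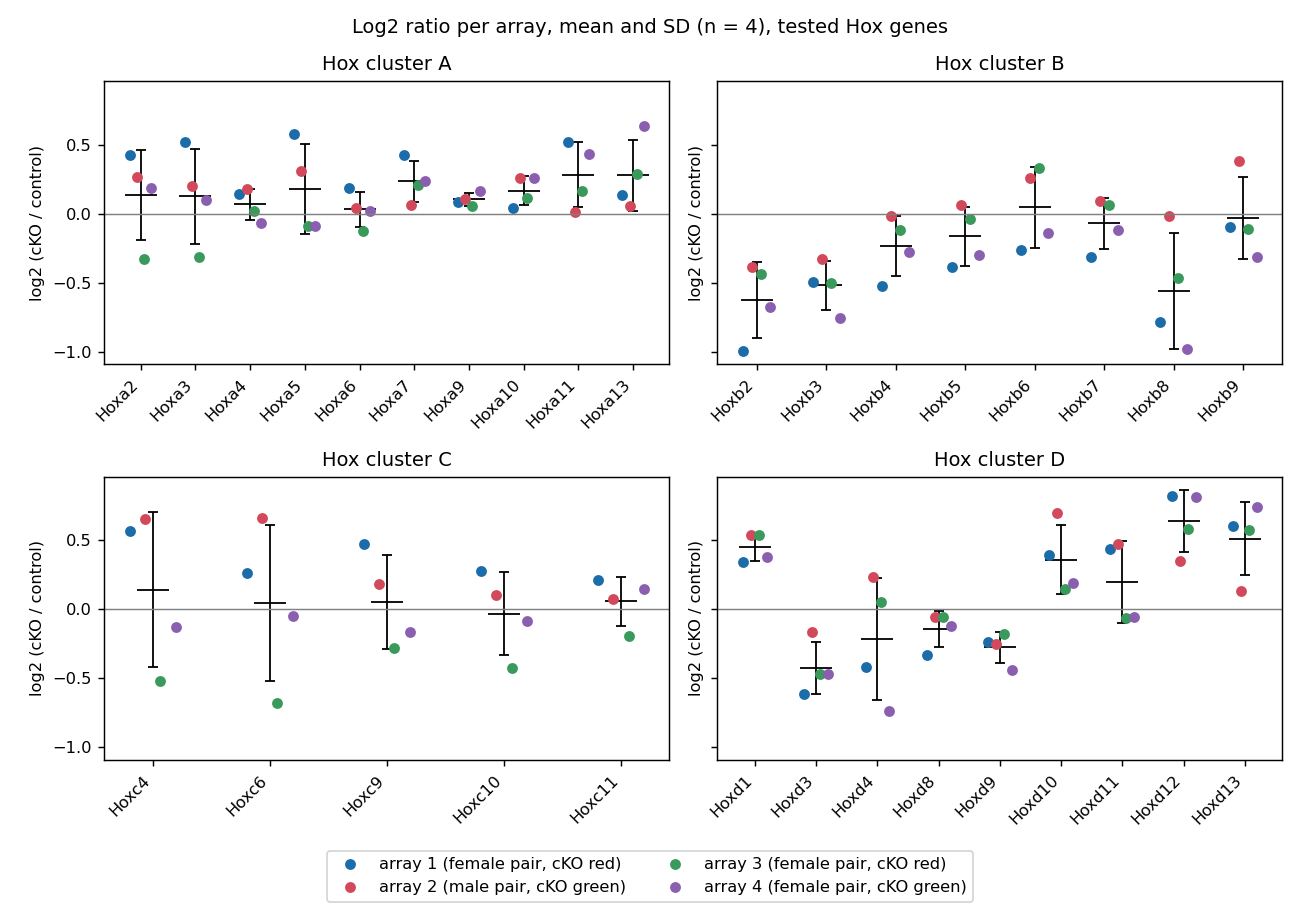
Log2 ratio of cKO over control on each of the 4 arrays (points, coloured by array) with their mean and SD (bars) for tested Hox genes, grouped by cluster. The 6 genes past the threshold have all 4 points on 1 side of 0, while Hoxc4 and Hoxc6 span 0 widely.

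The lower genes were 3 anterior members, with paralog numbers 2 and 3. Hoxb2, which sets segment identity in the hindbrain, had normalized log2 intensities of 13.13, 13.15, 13.16 and 13.16 in the controls of arrays 1 to 4 and of 12.13, 12.77, 12.72 and 12.48 in the cKO. The genotypes did not overlap, and the controls differed far less among themselves than the cKO samples did. The log2 ratios were -0.998, -0.39, -0.44 and -0.68, or -0.63 ± 0.28 (n = 4; adjusted p = 0.0304), a level 1.54-fold lower. Its probe lies at mm9 chr11:96215122-96215181. The call ended without array 1 (adjusted p = 0.0713), array 2 (0.0563) or array 4 (0.118), with ratios between -0.76 and -0.49.

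Hoxb3, its neighbour on chromosome 11 and likewise a hindbrain gene, read 12.51, 12.91, 12.79 and 13.12 in the controls and 12.01, 12.58, 12.29 and 12.36 in the cKO. The cKO sample was below its own control on each array, but the genotypes overlapped: the control of array 1 was below the cKO of array 2. The ratios were -0.49, -0.33, -0.50 and -0.76 (-0.52 ± 0.18; adjusted p = 0.023; 1.43-fold lower), at mm9 chr11:96209002-96209061. The second, dimmer probe of the gene gave -0.05, -0.08, -0.20 and -0.38 (-0.18 ± 0.15), with an adjusted p of 0.227 over all probes against 0.0231 for the brightest. Both probes were negative on every array and only the brighter one passed; with their mean, -0.35, the adjusted p was 0.0511. Among all tested probes 6.98% passed. Without array 1, 3 or 4 the adjusted p was 0.0956, 0.0877 or 0.0501.

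Hoxd3, the cluster D paralog of Hoxb3, read 12.29, 12.16, 12.20 and 12.18 in the controls and 11.68, 11.99, 11.74 and 11.71 in the cKO. All 4 cKO levels were below all 4 control levels. The ratios were -0.61, -0.17, -0.46 and -0.47 (-0.43 ± 0.19; adjusted p = 0.0269; 1.34-fold lower), with array 2 nearest to 0, at mm9 chr2:74585787-74585846. The third tested paralog of this number, Hoxa3, gave 0.52, 0.20, -0.32 and 0.10, with no single sign. The Hoxd3 call ended without array 1 (0.121), array 3 (0.0747) or array 4 (0.0935).

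The higher genes all lay in cluster D, at its 2 ends. Hoxd13, a patterning gene of the digits and the lower urogenital tract, read 10.0014, 10.59, 10.51 and 10.38 in the controls and 10.61, 10.72, 11.08 and 11.12 in the cKO. The genotypes did not overlap, though the highest control, on array 2, was just below the lowest cKO sample, on array 1. The ratios were 0.60, 0.14, 0.57 and 0.74 (0.51 ± 0.26; adjusted p = 0.0483; 1.43-fold higher), at mm9 chr2:74509248-74509307. The call lay at the threshold: the adjusted p was 0.0713 on Agilent's processed signals, 0.051 with an offset of 16, 0.0516 with the arrays scaled and 0.0651 with no filter on dim probes. It was 0.172, 0.139 or 0.071 without array 1, 3 or 4.

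Hoxd12, next to Hoxd13 and used in the developing limb, read 7.56, 8.40, 8.18 and 8.31 in the controls and 8.38, 8.75, 8.77 and 9.13 in the cKO. Every cKO sample was above its own control, but the cKO of array 1 was below the control of array 2, so the genotypes overlapped. The ratios were 0.82, 0.35, 0.59 and 0.82 (0.64 ± 0.22; adjusted p = 0.0187; 1.56-fold higher), the largest rise among the tested Hox genes, at mm9 chr2:74515664-74515723. The call ended without array 1 (adjusted p = 0.0853) and was kept without array 2, 3 or 4.

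Hoxd1, at the far end of cluster D, was a dim gene, at 6.41, 6.98, 6.74 and 7.01 in the controls and 6.75, 7.52, 7.28 and 7.39 in the cKO. Its groups overlapped across arrays, while its ratios were the most alike of the 6: 0.34, 0.54, 0.54 and 0.38 (0.45 ± 0.10; adjusted p = 0.0156; 1.37-fold higher), at mm9 chr2:74603000-74603059. An offset of 50 draws the ratios of dim genes toward 0, and the log2 ratio was 1.03 on Agilent's processed signals. The call ended without array 2 (0.0601) or array 3 (0.0665).

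**Figure D3:**
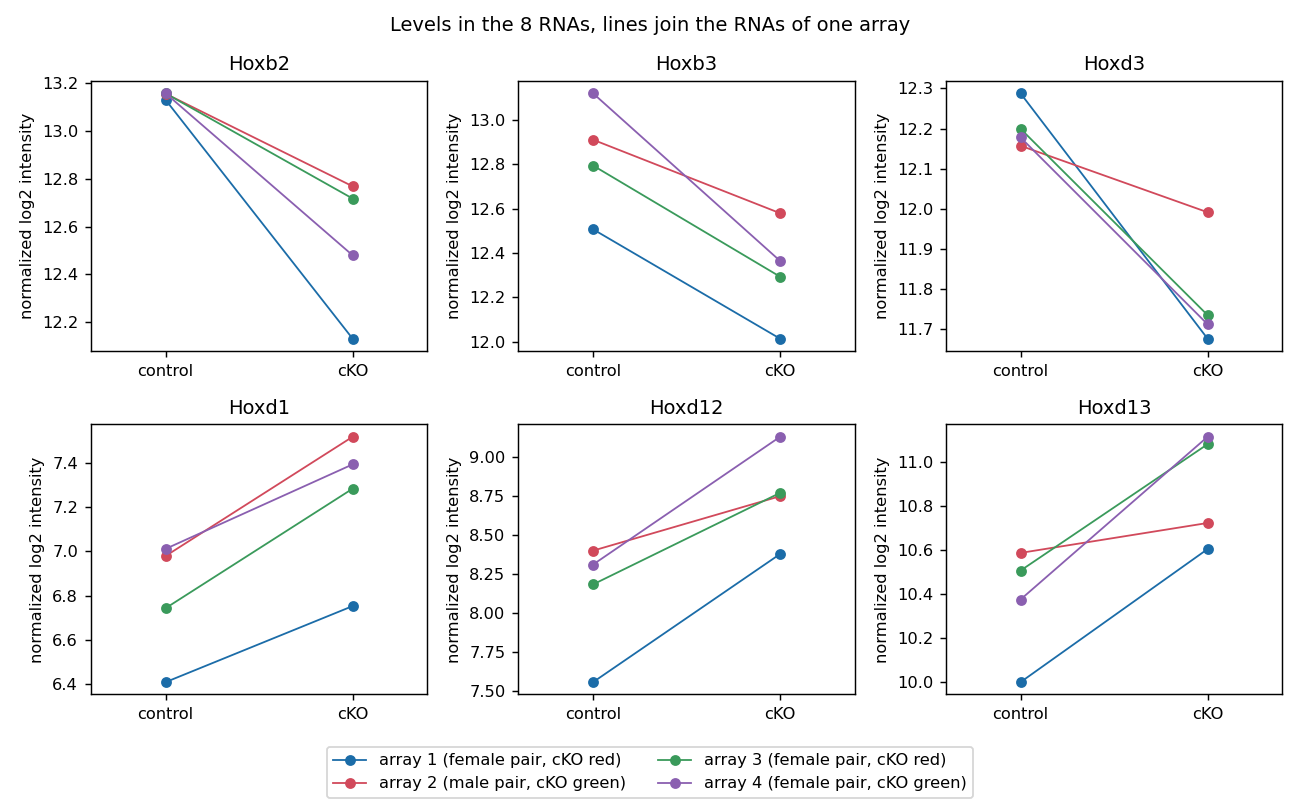
Normalized log2 intensity of the 6 Hox genes past the threshold in the 4 control and the 4 cKO samples, with lines joining the samples of 1 array. Every line goes down for Hoxb2, Hoxb3 and Hoxd3 and up for Hoxd1, Hoxd12 and Hoxd13; levels of different probes are not comparable.

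Along cluster D the sign of the ratio changed between neighbours. The 4 genes with paralog numbers 10 to 13 were all positive, with a median of 0.44 (0.52, 0.41, 0.36 and 0.47 on arrays 1 to 4; SD 0.07), and 2 passed. Hoxd10, which specifies motor neurons of the hindlimb, gave 0.40, 0.70, 0.15 and 0.19 (0.36 ± 0.25; adjusted p = 0.102), and its genotypes did not overlap. Hoxd11 gave 0.44, 0.47, -0.06 and -0.05 (0.20 ± 0.30; adjusted p = 0.41) with its brightest probe. Its second probe, at mm9 chr2:74522136-74522195, gave 0.41, 0.45, 0.19 and 0.29 (0.34 ± 0.12) and passed over all probes (adjusted p = 0.0432). The 2 probes of Hoxd11 thus differed on arrays 3 and 4, where only the second was positive.

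The 4 genes with paralog numbers 3 to 9 were all negative, with a median of -0.25 (-0.37, -0.11, -0.12 and -0.45; SD 0.17), and only Hoxd3 passed. Hoxd9 lies 28.4 kb from the Hoxd13 probe and Hoxd10 23.0 kb, so the sign turned between these neighbours. Hoxd9 gave -0.24, -0.25, -0.18 and -0.44 (-0.27 ± 0.11; adjusted p = 0.0514), all 4 negative and just short of the threshold. Hoxd8 had a mean of -0.14, and Hoxd4 gave -0.42, 0.23, 0.05 and -0.73 (-0.22 ± 0.44), a wider spread than 97.5% of tested genes. The signs of the group from 10 to 13 were the same under all 15 alternatives, the omission of each array included; without array 4, Hoxd4 turned positive (0.03).

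**Figure D4:**
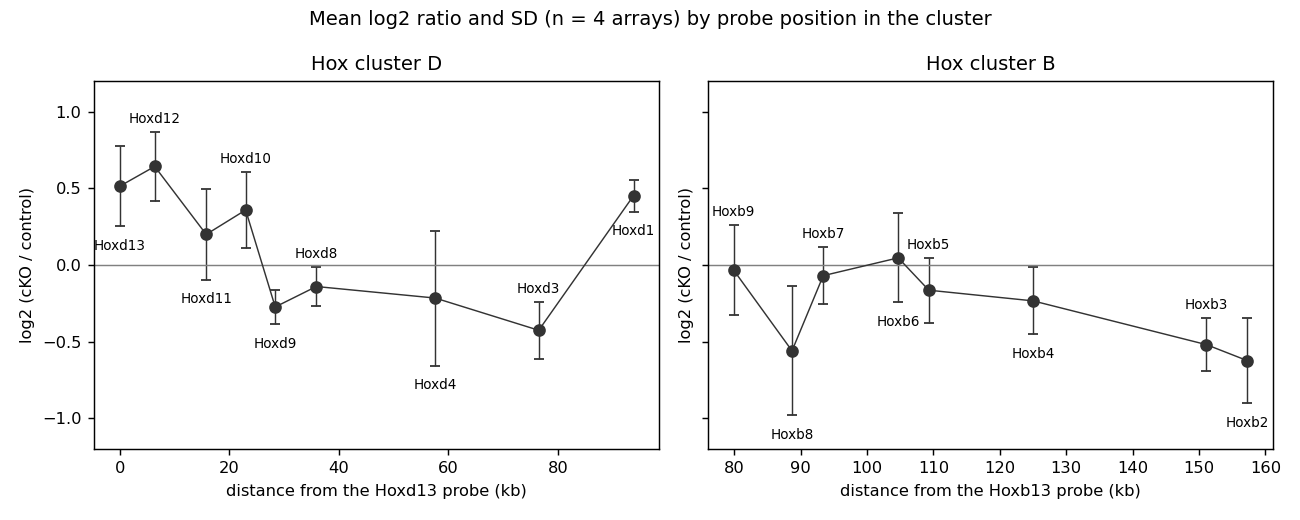
Mean log2 ratio of cKO over control (points) with SD over 4 arrays (bars) against the distance of the probe, in kb, from the Hoxd13 probe in cluster D and from the Hoxb13 probe in cluster B; only tested genes are drawn. In cluster D the ratio falls from 0.64 at Hoxd12 to -0.43 at Hoxd3 and is 0.45 at Hoxd1, and in cluster B the lowest ratios are at Hoxb2, Hoxb8 and Hoxb3.

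In cluster B, 7 of 8 tested genes were negative, with a median of -0.20 and array medians of -0.44, 0.02, -0.11 and -0.31 (SD 0.20). Beyond Hoxb2 and Hoxb3, none passed. Hoxb8, known for its role in blood cell and microglial lineages, read 12.69, 12.35, 12.61 and 12.84 in the controls and 11.91, 12.34, 12.14 and 11.86 in the cKO. Its genotypes did not overlap, but on array 2 they were nearly level. Its ratios of -0.78, -0.01, -0.47 and -0.98 (-0.56 ± 0.42; adjusted p = 0.117) were as large in the mean as those of genes that passed, with more spread. Hoxb4, a regulator of blood stem cells, gave -0.52, -0.02, -0.12 and -0.28 (-0.23 ± 0.22; adjusted p = 0.195). Hoxb7, the nephric duct gene, gave -0.07 ± 0.19 (adjusted p = 0.686), and Hoxb5, Hoxb6 and Hoxb9 had means of -0.16, 0.05 and -0.03. Array 1 was the lowest for the cluster and array 2, the male pair, the highest; without array 1 or array 4, 6 of the 8 genes were negative.

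Cluster A had no gene past the threshold, and all 11 means were positive, between 0.03 for Hoxa6 and 0.28 for Hoxa11 and Hoxa13. The median was 0.14 and the array medians were 0.19, 0.11, 0.02 and 0.19 (SD 0.08). The signs did not all last without array 1, where 8 of 11 were positive with a median of 0.04, or without array 4, where 10 were. Hoxa11, required with its paralogs for kidney induction, gave 0.52, 0.01, 0.17 and 0.43 (0.28 ± 0.24; adjusted p = 0.168), and its genotypes did not overlap. Hoxa13, the lower tract gene, gave 0.13, 0.05, 0.29 and 0.64 (0.28 ± 0.26; adjusted p = 0.196), and its second probe 0.25 ± 0.27. Hoxa10, a gene of the uterus and the genital ducts, gave 0.04, 0.26, 0.11 and 0.26 (0.17 ± 0.11; adjusted p = 0.123).

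Hoxa7, which patterns the axial skeleton, gave 0.42, 0.07, 0.21 and 0.24 (0.23 ± 0.15; adjusted p = 0.101). Hoxa9 had the smallest SD of the tested Hox genes, at 0.10 ± 0.05, a spread smaller than that of all but 5.65% of tested genes, and its second probe gave 0.16 ± 0.04. For Hoxa3 the probes parted: the second, at mm9 chr6:52149150-52149208, gave -0.03, 0.71, -0.07 and -0.60 (0.00 ± 0.54).

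Cluster C differed most between arrays and had no gene past the threshold. Its 5 tested means lay between -0.03 (Hoxc10) and 0.14 (Hoxc4), with a median of 0.05, but the array medians were 0.28, 0.19, -0.42 and -0.09 (SD 0.32). Hoxc4 gave 0.57, 0.65, -0.52 and -0.13 (0.14 ± 0.56), and Hoxc6 gave 0.26, 0.66, -0.68 and -0.05 (0.05 ± 0.57). Both spreads were wider than those of 98.9% of tested genes, and none of the 5 genes had the same sign on 4 arrays. The 5 genes of cluster C shared the order of the arrays in part: array 3 was the lowest for each of them. The median of the nephron and kidney stroma list was also highest on array 1 and lowest on array 3 (0.41, -0.05, -0.22 and 0.11). Its members differed: Wt1 (0.41, -0.11, -1.58 and -0.79) and Foxd1 (0.94, 0.35, -0.38 and 0.12) ran this way. Six2 was highest on array 3 (0.39) and Podxl lowest on array 2 (-0.05). Lrp2 was highest on array 2 (1.16) and lowest on array 4 (-0.83). The summed level of the list ranged from 6328 to 12038 in the controls and from 6865 to 13291 in the cKO. Of that list 0 of 5 tested genes passed, and its part in the spread of cluster C was not tested.

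By paralog number, the calls fell at the ends of the clusters. Of 7 tested genes with numbers 1 to 3, 1 was higher and 3 were lower, where 2.94% of all genes were higher and 5.6% lower. Of 13 with numbers 4 to 8 none passed in limma, with 3 at an unadjusted p under 0.05, a share near the 23.6% of all genes. Of 13 with numbers 9 to 13, 2 were higher and 0 lower, and 10 of the 13 means were positive with a median of 0.17. Number 3 had 2 of its 3 tested genes lower, and number 13 had positive ratios on all 4 arrays in both tested genes, with array medians of 0.37, 0.10, 0.43 and 0.69. Number 8 was negative on all 4 arrays in both tested genes, Hoxb8 and Hoxd8, and neither passed.

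The arrays resembled each other less over Hox genes than over all genes, in 4 of 6 pairs of arrays. Across the 33 Hox genes, which are not independent replicates and share the 4 arrays, Pearson's r was 0.62 for arrays 1 and 2 (0.53 over all genes) and 0.77 for arrays 1 and 4 (0.71). It was 0.34 for arrays 1 and 3 (0.68), 0.20 for arrays 2 and 3 (0.67), 0.36 for arrays 2 and 4 (0.62) and 0.65 for arrays 3 and 4 (0.74). The low values all involved array 2 or 3. A further coefficient set the male pair against the female pairs. Beside the dye term it equals the cKO ratio on array 2 minus that on array 4, and arrays 1 and 3 do not enter it. It is a difference between pairs in the ratio of cKO over control, not in level between the sexes. At an unadjusted p under 0.05 it stood at 6 of 33 (18.2%), against 4.7% of all. With 1 male pair, no conclusion about sex is drawn from it.

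Hox proteins bind DNA with TALE homeodomain partners of the Pbx and Meis families. All 9 listed partners were tested; 1 was higher and 0 were lower, where 2.94% of all genes were higher and 5.6% lower. All 9 means were positive, with a median of 0.14 beside 0.00 over all genes. Meis2, which is strongly expressed in mesenchyme, gave 0.56, 0.41, 0.50 and 0.15 (0.41 ± 0.18; adjusted p = 0.0228), with array 4 the lowest. Meis2 stayed past the threshold without array 4 (0.0385) and not without array 1 (0.106), 2 (0.0698) or 3 (0.0804).

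Of 26 listed neighbours and noncoding transcripts of the clusters, 19 were on the array and 18 were tested; 0 were higher and 1 was lower, a share near the 5.6% of all genes that were lower, with a median of -0.04. The lower one was Skap1, an adaptor of T cell signalling whose gene adjoins cluster B on the side of Hoxb1. It gave -1.16, -0.64, -0.79 and -0.94 (-0.88 ± 0.22; adjusted p = 0.00618), a larger fall than that of any Hox gene, at mm9 chr11:96620198-96620257. Its call was kept without each array (highest adjusted p 0.0249). Of the leukocyte list, which holds no marker specific to T cells, 0 of 5 genes passed, with a median of -0.06. Among all tested genes 8.54% passed. The part of T cells in the Skap1 ratio was not tested.

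The noncoding transcripts are set beside nearby Hox genes here, pairs chosen after their values were seen. Hoxa11os gave 0.23, 0.05, 0.15 and 0.40 (0.21 ± 0.15; adjusted p = 0.174) where Hoxa11 gave 0.52, 0.01, 0.17 and 0.43. Hoxb5os gave -0.28, -0.03, -0.08 and -0.26 where Hoxb5 gave -0.38, 0.06, -0.04 and -0.30. Hoxaas2 gave 0.41, 0.17, -0.48 and 0.22 where Hoxa3, whose probe overlaps it on the other strand, gave 0.52, 0.20, -0.32 and 0.10. Others ran differently: Hottip, beside Hoxa13, gave -0.17, 0.24, -0.14 and 0.26 where Hoxa13 gave 0.13, 0.05, 0.29 and 0.64, and Hoxaas3 gave 0.18, -0.01, -0.55 and -0.02. None of these transcripts passed. Hoxd3os1 gave -0.16 ± 0.07 (adjusted p = 0.131).

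Polycomb and trithorax proteins hold Hox clusters silent or active. Of 23 listed regulators, all tested, none passed in limma, with 3 at an unadjusted p under 0.05 and a median of -0.05. Over all tested genes 8.54% passed and 23.6% stood at an unadjusted p under 0.05. The 2 brightest regulators, the Polycomb genes Rnf2 and Eed, had means of 0.04 and -0.07. Of the 6 ParaHox genes, relatives of the Hox genes that include the Cdx regulators of Hox expression, 2 were tested, too few to set against those shares. None passed, with 0 at an unadjusted p under 0.05: Gsx1 had a mean of 0.11 and Cdx1 of -0.03.

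Retinoic acid is a direct inducer of Hox genes, anterior members first. Of 11 tested genes of its receptors and enzymes, 1 was higher and 2 were lower (all genes 2.94% and 5.6%), with a median of 0.03. Aldh1a1, which makes retinoic acid, gave -1.11, -1.25, -1.26 and -1.28 (-1.23 ± 0.08; adjusted p = 0.000562). Rxra, a partner of the retinoic acid receptors, gave -0.30, -0.31, -0.31 and -0.45 (-0.34 ± 0.07; adjusted p = 0.0226), and the call ended without any 1 of the arrays (0.0542 to 0.106). Cyp26a1, which breaks retinoic acid down, gave 0.70, 0.31, 0.47 and 0.43 (0.48 ± 0.16; adjusted p = 0.0141). Its signal passed the background test in the control on 1 array and in the cKO on 4, so it entered the test only through the group where it was high and its count is no support for a change in the list; it was not tested under the filter in both genotypes. It was 1.40 on Agilent's processed signals and 0.36 (adjusted p = 0.503) in the deposited value table, and its call ended without array 1 (0.0616) or array 4 (0.0666). The part of these genes in the Hox ratios was not tested.

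Markers of the tissue's cell types moved with the genotype beside the Hox genes. The counts below stand beside 5.6% of all tested genes lower and 2.94% higher. Of 7 basal urothelial genes 6 were lower, with a median of -2.21 and array medians of -2.30, -1.96, -2.18 and -2.16. Their summed level was 78206 to 90519 in the controls and 16874 to 18903 in the cKO. Of 9 shared epithelial genes 4 were lower, with a median of -0.49 and array medians of -0.96, -0.10, -0.44 and -0.62. This is the order of the array medians in cluster B, where array 1 was lowest, then array 4, array 3 and array 2. It is not the order of the basal genes, where array 3 was below array 4. Within cluster B, Hoxb3, Hoxb8 and Hoxb9 were lowest on array 4 and the other tested genes on array 1. The superficial urothelial genes, 0 of 6 past the threshold, ran -0.72, -0.01, -0.10 and -0.54 (median -0.34), in the order of the cluster B medians. Their sum was 479914 to 552095 in the controls and 299331 to 471522 in the cKO.

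The medians of the mesenchymal lists lay on the other side. Of 8 smooth muscle genes 0 passed, all 8 were positive, with a median of 0.16 and array medians of 0.27, 0.06, 0.04 and 0.18. Their sum was 468701 to 568915 in the controls and 572056 to 614837 in the cKO. Of 8 ureter mesenchyme genes 0 passed, 6 were positive and 2 negative, with a median of 0.12 (0.21, 0.01, -0.02 and 0.09). The sum of this list overlapped between genotypes, at 363503 to 428530 in the controls and 394366 to 471148 in the cKO. Cluster A had array medians of 0.19, 0.11, 0.02 and 0.19. The part of these lists in the ratios of clusters A and B was not tested.

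**Figure D5:**
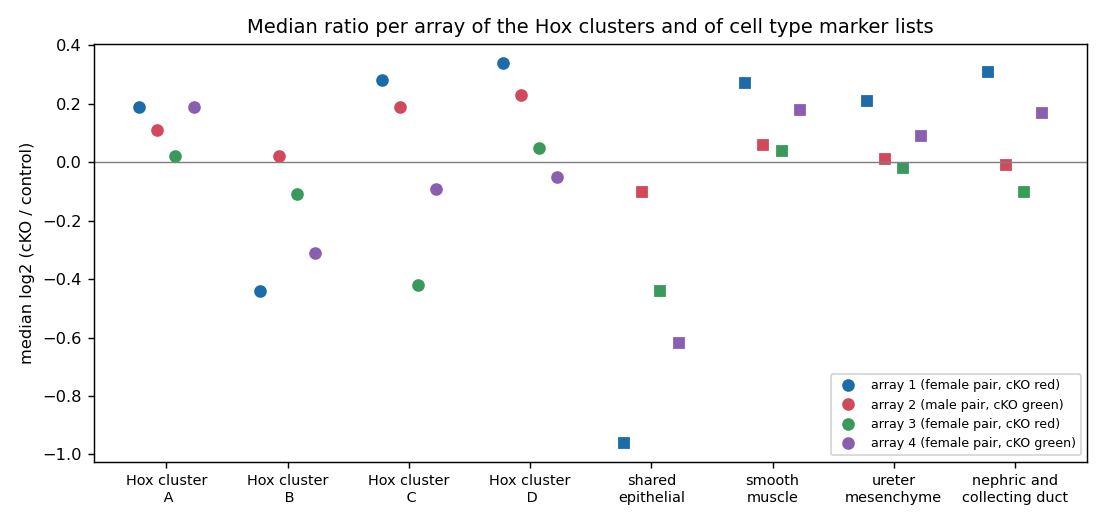
Median log2 ratio of cKO over control on each of the 4 arrays (one colour each) for the tested genes of the 4 Hox clusters (circles) and of 4 cell type marker lists (squares). Cluster B and the shared epithelial genes are lowest on array 1 and highest on array 2, and cluster C runs from 0.28 on array 1 to -0.42 on array 3.

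Some genes from further lists, most of them of other tissues, also passed. Over all tested genes the shares were 2.94% higher and 5.6% lower. Of 8 hepatocyte genes 4 were higher, with a median of 1.62 (2.28, 2.59, 1.35 and 0.47) and a summed level of 10973 to 38531 in the controls and 24127 to 198209 in the cKO. Of 5 skeletal muscle genes 0 passed and all 5 were positive (sum 58380 to 68794 against 69844 to 78560). Of 4 tested genes of the bladder and cloacal region 2 were higher (2743 to 3256 against 3763 to 4963). Of 6 tested intestinal genes 3 were higher and 1 lower (3579 to 4315 against 4506 to 10193). The other 2 intestinal genes, Vil1 and Cdx1, had means of 0.04 and -0.03. Of 6 adrenal genes 2 were higher (1630 to 1880 against 2036 to 3415), and of 4 tested genital duct genes 1 was lower (1287 to 1657 against 1038 to 1303). The nephric and collecting duct list is not foreign to the ureter, whose epithelium derives from the nephric duct. Of its 7 tested genes 2 were higher, with array medians of 0.31, -0.01, -0.10 and 0.17. They were Ret (0.57) and Pax8 (0.44), with mean log2 intensities of 8.49 and 9.27. The summed level of the list ran lower in the cKO instead (25936 to 30325 against 16311 to 27319). Gata3, its brightest gene at 14.44, had a ratio of -0.42 and did not pass. Phgr1, among the higher intestinal genes, and Cyp11b1, among the higher adrenal genes, were well above background on 1 control array and 4 cKO arrays, so they were tested only through the group where they were high. Hoxd12 and Hoxd13, expressed toward the tail in other organs too, had their lowest ratios on array 2, where the hepatocyte median was highest, and their highest on array 4, where it was lowest (Hoxd12 equally on array 1). The adrenal medians were 0.76, 0.20, 0.33 and 0.32, also lowest on array 2. Tbx4, of the bladder and cloacal list, gave 0.79, 0.46, 0.79 and 1.03 (adjusted p = 0.0133), lowest on array 2 and highest on array 4 like Hoxd12 and Hoxd13. The part of the genes of these further lists in the Hox ratios was not tested. Across all marker lists, 1 gene, of the genital duct list, was well above background on no array.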

How the data were processed

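The deposited scanner files hold spot intensities (mean signal, median local background and processed signals of each channel), which the authors extracted from the scans with Feature Extraction 10.7.3.1 (Agilent), per the submitters' processing notes. The values in the deposited table are log2 ratios, cKO over control, on a scale found by setting it against the scanner values (slope 0.99 to 1, r 0.996 to 0.999, median 0.00 on each array); between 7718 and 12487 probes per array are exactly 0 in it. Other columns used from the deposited files are spot flags and probe annotation (gene name, mm9 position).

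Signals were corrected with normexp (offset 50) and normalized within arrays by loess, with control spots at weight 0. Flagged spots (3.04% to 3.58%) were dropped, none was saturated, and the 4 spots of a probe were averaged. A gene was tested where its brightest probe was well above background, in over 0.5 of its spots, on all 4 arrays in at least 1 genotype. Probe names were updated through RefSeq genes (GRCm38.p6): 28328 by accession, 3400 by symbol, 242 by older symbol, 1355 kept, 6104 unnamed. Log2 ratios were fitted in limma 3.58.1 (R 4.3.3) with an intercept and a dye term, with 2 residual and 3.27 prior degrees of freedom, and adjusted by Benjamini-Hochberg over all genes. The p-values rest on the spread within a dye orientation, the SDs on all 4 arrays. Levels come from the separate channels (loess, Aquantile). The 2 RNAs of an array are paired by the hybridization (intra-spot correlation 0.741), not by a stated litter, and the ratios use that pairing. The number of arrays limits the precision. The scripts were tested on simulated data.

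The members and gene lists were chosen with earlier results of these data known. Named with values on each array are the Hox genes past the threshold and the 8 next by p; of each list, members past the threshold or else the 2 brightest. Some others are named for their range, spread or probes. The values of 1 gene and the sequence of 1 probe are not reported here.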

Additional observations from a re-analysis of the deposited data

Results flagged for a closer look

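In 72 sets of 4 values (39 ratios, 28 levels and 5 array medians), 3 had a lowest or highest value far from the others by Dixon's limit; chance alone would set apart about 1 in 20. The log2 ratio of Hoxc12, which was not well above background on any array, was 0.12 on array 2 and between -0.02 and 0.00 on the others. The Hoxb2 control level was 13.13 on array 1, against 13.15 to 13.16, a gap of little size in a set that hardly varied. The Hoxb4 cKO level was 11.18 on array 1, against 11.63 to 11.72, and the Hoxb4 ratio was lowest on that array.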

How the results depend on the processing

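The signs of all 6 called Hox genes were the same under all 15 alternatives, which were other background corrections, normalizations, filters, probe summaries and models, the deposited value table, and each array left out. Calls were less stable. Agilent's processed signals, an offset of 16, scaling between arrays and no filter on dim probes each kept 5 of the 6 calls, without Hoxd13. The stricter filter kept 6, and no dye term and median centring kept 6 and added Hoxd9 (7 in all). The mean of all probes also gave 6, with Hoxd9 in place of Hoxb3. Under these settings the share of all tested genes past the threshold ran from 5.93% (no filter on dim probes) to 10.3% (no dye term).

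In the deposited value table there were 263 genes higher and 589 lower, with 0 Hox genes lower and 0 members of the 5 lists of partners, neighbours, ParaHox genes, regulators and retinoic acid genes higher. With the stricter filter 1 list member was higher, since Cyp26a1 was no longer tested. With the array as a replicate block, 1217 genes were higher and 1677 lower, with 6 Hox genes higher and 5 lower and 4 list members higher and 6 lower. Without the block these were 124 and 432, 0 and 1, and 1 and 1. With 1 array left out, 270 to 350 genes were higher and 540 to 747 lower. The Hox genes then counted 1 to 2 higher and 0 to 3 lower, and the list members 0 to 3 higher and 2 lower. The median of the Hox genes ran from -0.04 to 0.15 with an array left out. The cause of these differences was not tested, beyond the fewer arrays. Log2 ratios with an array left out ran from -0.76 to -0.49 for Hoxb2, from -0.63 to -0.41 for Hoxb3, from -0.50 to -0.35 for Hoxd3, from 0.40 to 0.50 for Hoxd1, from 0.53 to 0.76 for Hoxd12 and from 0.36 to 0.66 for Hoxd13. Signal near background limits Hoxd1 and the 6 untested genes.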
